A study of Homo sapiens with 34 samples.

Results

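Genes named LINC followed only by digits, the catalogue names given to long intergenic noncoding RNA genes without a better name, were analysed across the haematopoietic differentiation of human embryonic stem cells. The rule was the gene name in the deposited expression table, and it found 283 of 20255 genes, of which 259 passed the filter on low values (at least 10 in at least 3 samples) and 24 did not. H1, an established human embryonic stem cell line, was differentiated on collagen IV without haematopoietic cytokines, with BMP4 and VEGF at the start and then VEGF as the only growth factor. RNA was sequenced from 34 samples in 12 populations, with 3 biological replicates of each population except the single undifferentiated H1 sample. These were undifferentiated H1 cells, day 0 embryoid bodies (EBs), unsorted cells at days 2 and 4, and cells sorted by the blood cell marker CD43 at days 6, 9, 12 and 16. The day 16 sort also used CD45, so that the day 16 CD43- cells were CD43-CD45- and the day 16 CD43+ cells were CD43+/CD45+. All samples came from the same cell line, so the replicates measure the spread between differentiations of a single genotype.

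Long noncoding RNAs are transcripts made largely by RNA polymerase II that do not carry a long open reading frame. Some act beside the gene they are transcribed from, some bind proteins or microRNAs elsewhere in the cell, and for most no function is known. Their transcription is often restricted to particular tissues or stages, which makes them sensitive labels of cell state, and several have been described in pluripotent and in myeloid cells. In GENCODE v29, 214 of the 283 genes were lincRNA genes, 21 antisense, 20 processed transcripts and 16 protein-coding, and 3 had no entry. The name alone is therefore no proof that a transcript is noncoding, and 25 of the genes had another name there. Examples of the protein-coding entries were LINC00116 (MTLN, a mitochondrial micropeptide gene), LINC01420 (NBDY) and LINC00493 (SMIM26).

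The deposited values were GC-normalised tag counts, called values here, and all 34 samples held the same sorted values, so a rise of one class of genes had to be met by a fall of others. The depth of each library is therefore unknown. The values are also not scaled by gene length, so they compare samples for a gene and not the abundance of 1 gene with another. In these units the median gene of the set had a mean value of 16.8 over the samples, against 432 for protein-coding genes, and 104 of the 283 had a mean under 10. Of the set, 64 genes overlapped another gene of the table, 36 of them a protein-coding gene. Whether reads were assigned by strand is not given in the sources used here, so values of these overlapping genes are uncertain.

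The pluripotency markers POU5F1, NANOG, SOX2 and L1TD1 summed to 36881 to 51047 over the H1, day 0 and day 2 samples and to at most 208 in every CD43+ sample. The 4 blood markers SPN (which encodes CD43), PTPRC (CD45), GATA1 and RUNX1 summed to 15983 to 25764 in CD43+ samples and to 349 to 2205 in CD43- samples. SPN encodes the sort marker itself, and PTPRC hardly added to the day 6 sums, with means of 3 in CD43+ and 0.67 in CD43- cells. The mesenchymal markers COL1A1, COL3A1, PDGFRB and POSTN summed to 128530 to 222700 in CD43- samples and to 2669 to 63916 in CD43+ samples. The late CD43- samples held myeloid transcripts as well: the sum of MPO, LYZ and CSF1R was 91, 1767 and 8011 in the 3 day 12 CD43- samples and 5842, 19383 and 11851 in the 3 day 16 CD43- samples, against 191482 to 210420 in the CD43+ samples of those days. The highest value in the data was 90700, and MPO and LYZ had it in all of these CD43+ samples. Their sums there are thus capped and vary through CSF1R only. The mesenchymal sums of CD43- samples are capped too, with COL3A1 at 90700 in all of them. Erythroid transcripts were also present in the day 16 CD43- samples. HBE1, HBZ, HBG1 and ALAS2 summed to 1503, 1562 and 3344 there and to 4188 to 9553 in day 16 CD43+ samples. Of these markers HBZ had the higher mean in the CD43- samples (832 against 208), and the others in the CD43+ samples. The part of myeloid and erythroid transcripts in the CD43- values reported here was not tested. In sorted bulk samples, fewer cells of a type and less RNA per cell cannot be told apart.

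Promoter sequences of RefSeq (GRCh38.p14, 250 bases before the start and 50 from it) were matched to 180 of the 283 genes by name, and for 116 of them the RefSeq start lay within 100 bases of the 5′ end in the deposited table. The promoters shown here represent the main patterns of expression. LINC01094 and LINC01215 stand for genes higher in CD43+ cells from day 9, LINC01133 for one present in early CD43+ cells, LINC00261 for one lower in CD43+ cells, LINC00479 for one whose CD43 difference turned round, LINC01108 for the pluripotent state and LINC00547 for day 12. Capitals mark AGATAA (the core recognised by GATA factors), GAGGAA (the core recognised by PU.1 and other ETS factors) and TATAAA (the TATA box), each searched on both strands, and no 2 marked matches overlap.
LINC01094, chr4:78645744-78646043, plus strand: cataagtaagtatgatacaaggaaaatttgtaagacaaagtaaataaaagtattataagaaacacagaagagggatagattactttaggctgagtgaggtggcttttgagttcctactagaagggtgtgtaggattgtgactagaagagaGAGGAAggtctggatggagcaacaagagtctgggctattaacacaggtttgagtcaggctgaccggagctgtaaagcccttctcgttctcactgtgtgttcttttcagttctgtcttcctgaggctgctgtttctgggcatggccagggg
LINC01215, chr3:108125571-108125870, plus strand: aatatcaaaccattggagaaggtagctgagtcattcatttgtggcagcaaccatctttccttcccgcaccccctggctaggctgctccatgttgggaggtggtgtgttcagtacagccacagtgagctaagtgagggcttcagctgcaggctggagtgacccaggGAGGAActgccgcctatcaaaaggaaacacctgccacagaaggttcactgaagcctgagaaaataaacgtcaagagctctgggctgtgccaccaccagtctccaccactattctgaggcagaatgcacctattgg
LINC01133, chr1:159960974-159961273, plus strand: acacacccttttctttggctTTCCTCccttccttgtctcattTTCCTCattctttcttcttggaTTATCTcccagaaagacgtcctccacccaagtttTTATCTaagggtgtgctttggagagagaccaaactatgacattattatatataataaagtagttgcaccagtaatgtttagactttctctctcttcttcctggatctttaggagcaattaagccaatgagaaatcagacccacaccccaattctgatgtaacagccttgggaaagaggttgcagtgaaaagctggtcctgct
LINC00261, chr20:22578593-22578892, minus strand: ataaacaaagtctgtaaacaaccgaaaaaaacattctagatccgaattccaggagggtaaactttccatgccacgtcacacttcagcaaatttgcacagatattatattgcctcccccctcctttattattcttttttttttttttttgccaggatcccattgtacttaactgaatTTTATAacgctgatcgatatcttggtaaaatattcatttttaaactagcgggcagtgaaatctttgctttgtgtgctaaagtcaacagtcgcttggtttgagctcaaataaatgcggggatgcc
LINC00479, chr21:41715726-41716025, minus strand: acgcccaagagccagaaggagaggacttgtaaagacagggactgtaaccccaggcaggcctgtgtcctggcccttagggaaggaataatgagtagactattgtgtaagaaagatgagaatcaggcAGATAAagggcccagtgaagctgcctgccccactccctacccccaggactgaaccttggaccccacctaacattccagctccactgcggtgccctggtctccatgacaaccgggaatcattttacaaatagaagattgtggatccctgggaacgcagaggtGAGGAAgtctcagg
LINC01108, chr6:14285405-14285704, minus strand: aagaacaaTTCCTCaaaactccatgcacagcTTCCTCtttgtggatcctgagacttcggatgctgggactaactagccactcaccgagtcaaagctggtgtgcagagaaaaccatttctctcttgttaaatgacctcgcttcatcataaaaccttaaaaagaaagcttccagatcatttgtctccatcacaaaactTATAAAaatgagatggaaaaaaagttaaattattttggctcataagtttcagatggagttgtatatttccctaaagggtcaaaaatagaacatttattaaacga
LINC00547, chr13:37534690-37534989, plus strand: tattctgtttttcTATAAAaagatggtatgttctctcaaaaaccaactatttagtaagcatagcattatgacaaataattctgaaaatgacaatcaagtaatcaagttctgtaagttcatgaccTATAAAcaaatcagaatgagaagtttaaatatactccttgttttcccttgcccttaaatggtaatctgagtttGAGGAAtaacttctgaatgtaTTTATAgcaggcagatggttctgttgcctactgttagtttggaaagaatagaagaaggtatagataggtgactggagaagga

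The letters of the 3 motifs were not particular to these windows. AGATAA was present in 14.7% of the 116 promoters of the set and in 10.3% of all 35116 RefSeq promoters, GAGGAA in 37.1% and 27.9%, and TATAAA in 11.2% and 11.5%. In LINC01133 the GATA letters occurred at positions -186 and -152 from the start, both as the reverse complement. LINC00479 held them at position -125. LINC01108 carried TATAAA at position -54 and LINC00547 at -237, -126 and, as the reverse complement, -32. LINC01094 and LINC01215 each held GAGGAA, at positions -100 and -85. A match of letters is a description of the window and not a binding site.

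Genes of the pluripotent state fell in the first 6 days. LINC00678, known from pluripotent cells, overlaps BDNF-AS and is uncertain for that reason. It was at 4150 in undifferentiated H1 cells and at 3538, 3184 and 2805 in day 0 EBs. Its values fell to 649, 460 and 528 on day 2 and to 32, 41 and 28 on day 4, and no later sample was above 12. The groups of these 3 days did not overlap, and limma called both steps, with differences of -2.55 ± 0.52 (SE, adjusted p = 0.000355) and -3.98 ± 0.52 (adjusted p = 8.36e-07) on the log2(value + 1) scale, which is used for every difference below (n = 3 per population).

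LINC01108, also described in embryonic stem cells, was at 152 in H1 cells and at 142, 80 and 134 on day 0. It was at 68, 64 and 50 on day 2 and at 7, 0 and 4 on day 4, a difference of -4.16 ± 0.66 (limma, adjusted p = 1.29e-05). LINC00458, another gene of pluripotent cells, behaved differently at first. Its values were 91, 65 and 80 on day 0, 256, 312 and 209 on day 2, and 76, 71 and 46 on day 4. All 3 day 2 values were above those of both neighbouring days, although the change from day 0 (1.70 ± 0.57, limma, adjusted p = 0.0213) stayed under the 4-fold limit. From day 4 to day 6 CD43- cells the difference was -4.89 ± 0.57 (limma, adjusted p = 1.8e-07). All 3 of these genes were called lower on day 4 than on day 2, against 4.53% of all genes tested. Later, LINC00678 was called higher in CD43+ than in CD43- cells on day 12 and LINC01108 on day 16. Of all genes tested, 11.8% and 12.2% were called higher on those days.

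LINC01405 and LINC00698 were lost along with them. LINC01405 was at 66, 90 and 64 on day 0 and at 13, 6 and 6 on day 2, and no sample after day 4 was above 1. LINC00698 declined more slowly, from 36, 49 and 48 on day 0 to 12, 4 and 12 on day 4, and was listed at 0 in all day 6 samples. LINC01194 was at 131, 70 and 112 on day 2 and at 6, 3 and 0 on day 4. Its day 0 values were 68, 998 and 60, so that 1 EB sample stood far from the other two. LINC00337 was at 36, 30 and 22 on day 4, between 0 and 3 in all day 6 samples, and called lower than on day 4 in both fractions, by -3.17 ± 0.56 in CD43- and -3.84 ± 0.56 in CD43+ cells (limma, adjusted p = 4.81e-05 and 2.26e-06).

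A few genes peaked on day 2, in cells given BMP4 and VEGF. LINC00467, a widely expressed gene, was at 76, 48 and 54 on day 0, at 825, 916 and 774 on day 2, and at 38, 38 and 45 on day 4. Its differences of 3.82 ± 0.22 (limma, adjusted p = 1.74e-13) and -4.34 ± 0.22 (adjusted p = 1.86e-14) had the smallest adjusted p-values in these comparisons among the genes named. LINC01124, which starts 0.784 kb from SP5, a transcription factor gene known as a Wnt target, went from 6, 2 and 6 to 272, 283 and 338 and back to 76, 80 and 63. The day 2 values of both genes lay above all values of day 0 and of day 4.

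In numbers, 11 of the 259 genes were called higher and 12 lower on day 2 than on day 0 (limma, adjusted p below 0.05 and a fold change above 4). These counts compare with 4.4% and 3.48% of all 19788 genes tested. On day 4 against day 2, 15 were called higher and 16 lower, against 4.97% and 4.53% of all genes. The shares in the set, 4.25% and 4.63% and then 5.79% and 6.18%, were close to this background. Among the genes that rose by day 4 were LINC01305, near SP9, which went from 8, 5 and 3 to 157, 158 and 172 (4.77 ± 0.42, adjusted p = 6.65e-10), and LINC00837, which was listed at 0 in all day 0 and day 2 samples, at 16, 16 and 20 on day 4, and at no more than 4 in any later sample.

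**Figure D1:**
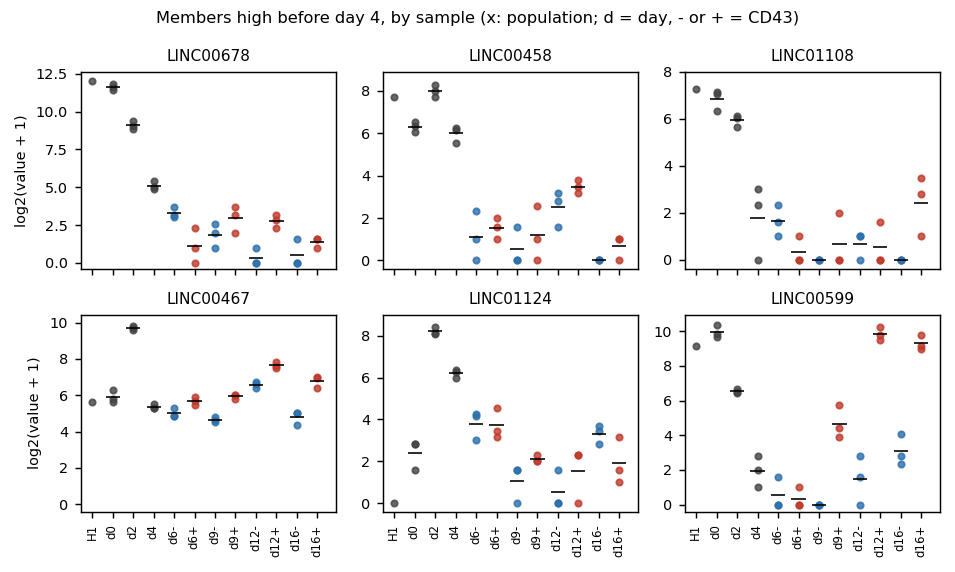
Values of 6 genes in every sample as log2(value + 1) on the vertical axis, by population on the horizontal axis (grey, unsorted; blue, CD43-; red, CD43+; points, samples; bars, means of the log2 values). LINC00678, LINC00458 and LINC01108 fall to the baseline by day 6, LINC00467 and LINC01124 peak on day 2, and LINC00599 is high in H1 and day 0 samples and again in day 12 and day 16 CD43+ samples.

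LINC00599, the host gene of the microRNA miR-124-1, had 2 separate periods of expression. It was at 558 in H1 cells, at 1307, 918 and 818 in day 0 EBs, at 90, 100 and 86 on day 2 and at 1, 6 and 3 on day 4. On day 6 no sample of either fraction was above 2. In CD43+ cells it then reached 14, 52 and 20 on day 9, 1198, 718 and 868 on day 12 and 570, 495 and 874 on day 16, while the CD43- values stayed between 0 and 16. The day 12 difference between the fractions, 8.36 ± 0.59 (limma, adjusted p = 1.53e-12), was the largest of the set in the 4 fraction comparisons. The day 12 CD43+ values were of the size of those in EBs, and this comparison was not tested.

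At day 6, when the first CD43+ cells were sorted, both fractions departed from day 4. In day 6 CD43- cells 18 genes were called higher and 18 lower than on day 4, against 4.94% and 2.77% of all genes. In day 6 CD43+ cells 31 were called higher and 15 lower, against 6.8% and 7.73%. The share called higher in CD43+ cells was 12% of the set. Both comparisons use the same day 4 samples. LINC00152 (CYTOR, linked to the cytoskeleton) was at 70, 130 and 92 on day 4, at 504, 494 and 257 in day 6 CD43- cells and at 950, 1117 and 1052 in day 6 CD43+ cells, and limma called it higher in both, by 2.07 ± 0.33 and 3.45 ± 0.33 (adjusted p = 1.35e-05 and 2.65e-09).

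LINC01551 and LINC00887 likewise rose in both fractions. LINC01551 was at 2 in each day 4 sample and at 55, 114 and 178 in day 6 CD43+ cells. In day 6 CD43- cells it was at 48, 20 and 326, and the difference from day 4 was 4.54 ± 1.15 (limma, adjusted p = 0.00222) with and 3.42 (adjusted p = 0.025) without the third of these samples. The same sample was the highest of its group for LINC00506, at 3724 against 1451 and 1054. It also differed in the sum of the endothelial markers CDH5, PECAM1, KDR and TEK, at 30191 against 90782 and 71798, whose part in these values was not tested. LINC00887 went from 18, 16 and 12 on day 4 to 207, 172 and 342 in CD43- and 184, 224 and 247 in CD43+ cells, stayed between 120 and 220 on day 9, and was at 25 or less in every day 12 sample.

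Between the CD43 fractions the set leaned to the CD43+ side on every day. On day 6, 19 of the 259 genes were called higher and 5 lower in CD43+ than in CD43- cells, against 4.68% and 7.85% of all genes. On day 9 the counts were 39 and 15, against 8.65% and 12.8%. On day 12 they were 48 and 12, against 11.8% and 14.4%, and on day 16 they were 59 and 22, against 12.2% and 13.6%. In the set, 7.34%, 15.1%, 18.5% and 22.8% were called higher on the 4 days and 1.93%, 5.79%, 4.63% and 8.49% lower. Among all genes more were called lower than higher on each day, although without the 4-fold limit more were higher (6342 against 4654 at an unadjusted p below 0.05 on day 6 and 7648 against 6157 on day 16). Clone-named noncoding genes had shares like those of the set, with 6.99%, 12.4%, 19% and 17.2% called higher and 3.21%, 6.62%, 6.58% and 5.51% lower. The median difference of the set was 0.26, 0.53, 0.70 and 0.80, and that of all genes tested 0.14, 0.24, 0.215 and 0.14. Without the third day 6 CD43- sample the day 6 counts were 17 and 2. Some low genes passed the filter only through CD43+ samples, which favoured a call on that side in advance. LINC00211, for example, was at 14, 38 and 36 in day 12 and at 46, 56 and 92 in day 16 CD43+ cells. It was at 6 or less in all other samples. Such genes were not counted, and these shares were not split by the level of the genes.

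**Figure D2:**
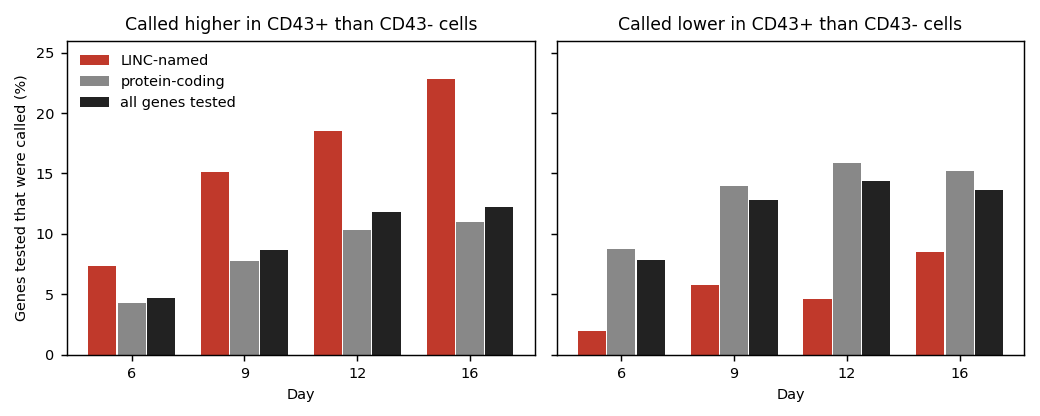
Share of genes tested (%, vertical axis) called higher (left) or lower (right) in CD43+ than in CD43- cells by day, for the 259 LINC-named genes, protein-coding genes and all 19788 genes tested. Of these 3 classes the LINC-named genes have the tallest bars on the left on each day, from 7.34% to 22.8%, and the shortest on the right; clone-named genes, not drawn, had 19% on the left on day 12.

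Over the 4 days, 86 genes of the set were called higher in CD43+ cells on at least 1 day and 31 lower, with 3 genes in both groups. These were 33.2% and 12% of the set, against 18% and 20.2% of all genes tested. Of the 197 lincRNA genes that were tested 49 were higher and 16 lower on day 16. Of the 16 genes with a protein-coding entry 5 were higher and 2 lower on that day, and of the 18 antisense genes 2 and 2. LINC00116, LINC00173, LINC00299, LINC00520, LINC00861, LINC01140 and LINC01366 were called higher in CD43+ cells on all 4 days (2.7% of the set, against 2.09% of all genes), and LINC00261 and LINC00982 were called lower on all 4 (0.772%, against 4.62%).

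The genes of early CD43+ cells were led by LINC00861, which lies far from any protein-coding gene. Its day 6 values were 132, 83 and 104 in CD43+ cells and 0, 1 and 0 in CD43- cells, a difference of 6.39 ± 0.38 (limma, adjusted p = 5.03e-13). In CD43- cells it was listed at 0 in all samples of days 9, 12 and 16. In CD43+ cells it declined to 40, 36 and 36 on day 9, 7, 10 and 16 on day 12, and 8, 6 and 14 on day 16. Each CD43+ value stayed above every CD43- value, and the gene was called on each day.

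LINC01133 and LINC01099 were likewise highest in day 6 CD43+ cells. LINC01133, whose promoter letters are printed above, was at 16, 16 and 12 in day 6 CD43+ cells and listed at 0 in all 3 CD43- samples (limma, adjusted p = 1.02e-07). With a pseudocount of 10 this difference was 1.30, under the 4-fold limit. By day 12 it was at 1, 2 and 2, and it was no longer called. LINC01099 was at 40, 40 and 36 against 0, 1 and 4 on day 6 (4.20 ± 0.77, adjusted p = 5.4e-05) and called on days 6 and 9 only. LINC01366 was at 29, 20 and 30 against 2, 1 and 0 on day 6, at a higher 44, 73 and 55 against 0, 1 and 1 on day 9, at 28, 91 and 16 in day 16 CD43+ cells, and was called higher on each of the 4 days.

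LINC00173 and LINC01140 were present before blood formation and then separated by fraction. LINC00173, known from granulocytes, was at 105, 68 and 45 on day 0 and at 20, 13 and 20 on day 4. In CD43+ cells it was at 127, 127 and 136 on day 6, 206, 192 and 190 on day 9, 254, 285 and 244 on day 12 and 389, 466 and 345 on day 16. In CD43- cells it was at 8, 3 and 1 on day 6 and at 96, 120 and 82 on day 16. The difference was thus 4.98 ± 0.46 on day 6 (limma, adjusted p = 1.55e-09) and 2.01 ± 0.46 on day 16 (adjusted p = 0.000433), with values climbing in both fractions. The day 16 CD43- samples are those with summed myeloid markers of 5842 to 19383.

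LINC01140 went from 90, 90 and 84 on day 4 to 432, 400 and 328 in day 6 CD43+ cells and 16, 10 and 13 in day 6 CD43- cells. It rose in the CD43+ fraction and fell in the other, by 2.11 ± 0.34 and -2.69 ± 0.34 from day 4 (limma, adjusted p = 8.97e-06 and 4.97e-07). On day 16 it was at 532, 440 and 582 in CD43+ cells and at 36, 60 and 58 in CD43- cells.

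Other genes reached higher values in CD43+ cells on day 9. LINC00989 was at 46, 42 and 28 in day 9 CD43+ cells and listed at 0 in all 3 CD43- samples of that day (limma, adjusted p = 4.65e-09). It was at 1, 2 and 0 in day 6 CD43+ cells and at 88, 133 and 38 in those of day 16. LINC01215 was at 132, 86 and 92 in CD43+ and 4, 1 and 1 in CD43- cells on day 9 (5.24 ± 0.49, adjusted p = 5.77e-10), after 30, 34 and 14 against 10, 6 and 3 on day 6. LINC00528, next to the apoptosis gene BID, was at 56, 48 and 26 against 1, 0 and 0 on day 9 and at 220, 235 and 276 against 6, 12 and 5 on day 16.

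LINC01094, known from myeloid cells and neighbour of ANXA3, was at 221, 134 and 221 in day 9 CD43+ cells and at 8, 2 and 4 in CD43- cells, a difference of 5.20 ± 0.57 (limma, adjusted p = 1.18e-08). On day 6 the fractions stood closer, at 44, 22 and 32 against 22, 14 and 8, with the lowest CD43+ value equal to the highest CD43- value. On day 16 the values were 154, 129 and 286 against 1, 4 and 4.

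The genes that marked late CD43+ cells were LINC01272, LINC01127 and LINC00539. LINC01272, annotated as SMIM25 in GENCODE v29 and known from monocytes, was listed at 0 in all day 6 CD43+ samples, was at 1, 8 and 8 on day 9 and reached 239, 178 and 174 on day 12 and 135, 80 and 362 on day 16. In CD43- cells it was at 10, 3 and 3 on day 12 and at 0, 2 and 0 on day 16. Its difference was 5.13 ± 0.55 on day 12 and 6.78 ± 0.55 on day 16 (limma, adjusted p = 4.47e-09 and 2.26e-11). Of the 3 genes listed as known from myeloid cells, 1 was called higher in CD43+ cells on day 6 and all 3 on days 9, 12 and 16. The shares of all genes tested were 4.68% on day 6 and 8.65%, 11.8% and 12.2% on the later days.

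LINC01127 was listed at 0 in all day 9 CD43+ samples, was at 42, 50 and 32 on day 12 and at 188, 183 and 223 on day 16. The CD43- values of those days were 2, 4 and 0 and then 2, 3 and 6, so that the fractions did not overlap (4.08 ± 0.52 and 5.50 ± 0.52, limma, adjusted p = 1.21e-07 and 5.82e-10). LINC00539 was at 26, 56 and 82 against 1, 1 and 1 on day 12. LINC00482 was listed at 0 in all day 9 CD43+ samples and was at 36, 51 and 69 on day 12 and 44, 56 and 95 on day 16, against 10 or less in the CD43- samples of those days.

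LINC00877 combined an early loss with a late gain. It went from 32, 16 and 20 on day 0 to 0, 4 and 0 on day 2 (-3.73 ± 0.51, limma, adjusted p = 1.46e-06), and in CD43+ cells from 25, 58 and 19 on day 9 to 108, 92 and 86 on day 12 and 192, 196 and 248 on day 16. The CD43- values of days 9 to 16 lay between 10 and 20, so that on days 12 and 16 the fractions were far apart (2.86 ± 0.51 and 3.81 ± 0.51, adjusted p = 1.62e-05 and 2.24e-07). LINC01619, which overlaps BTG1 and is uncertain for that reason, was at 32, 28 and 52 in day 16 CD43+ cells and at 10 or less in every other sample.

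**Figure D3:**
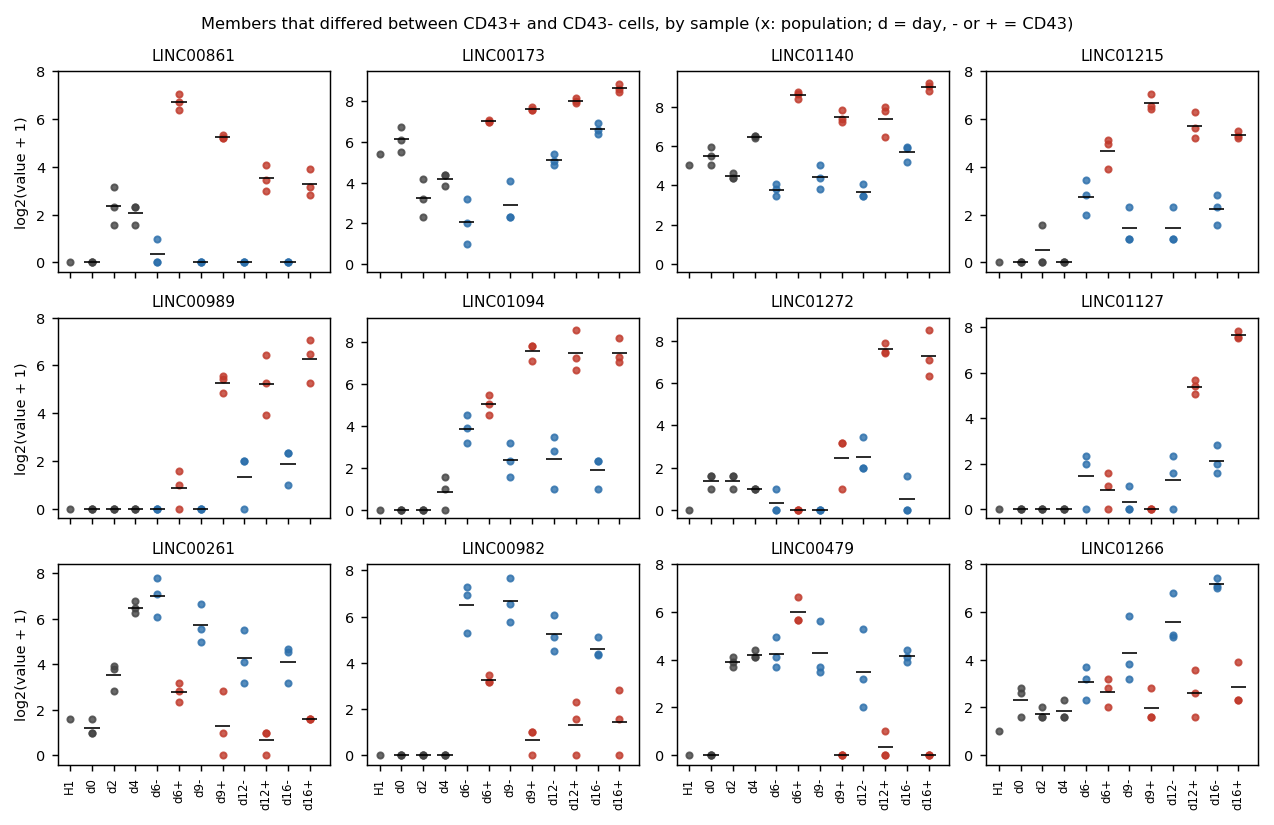
Values of 12 genes in every sample as log2(value + 1) on the vertical axis, by population on the horizontal axis (grey, unsorted; blue, CD43-; red, CD43+; points, samples; bars, means of the log2 values). LINC00861 is highest in day 6 CD43+ samples, LINC01215 in those of day 9 and LINC01127 in those of day 16, LINC00261, LINC00982 and LINC01266 are higher in CD43- samples, and LINC00479 is higher in CD43+ samples on day 6 only.

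Fewer genes marked the CD43- fraction. LINC00261, which lies 2.363 kb from FOXA2 and is known for its part in endoderm differentiation, was at 1, 2 and 1 on day 0 and at 107, 86 and 75 on day 4. On day 6 it was at 67, 134 and 220 in CD43- cells and at 4, 6 and 8 in CD43+ cells (-4.22 ± 0.62, limma, adjusted p = 2.52e-06). The CD43- values were lower later, at 100, 46 and 30 on day 9, 44, 16 and 8 on day 12 and 24, 8 and 22 on day 16, and on each day all were above the CD43+ values.

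LINC00982, on the opposite strand 0.731 kb from the transcription factor gene PRDM16, was listed at 0 in all samples up to day 4. It was at 155, 123 and 38 in day 6 CD43- cells and at 8, 8 and 10 in CD43+ cells. The lowest of these CD43- values was in the sample with the low endothelial sum. On day 9 the values were 204, 54 and 92 against 0, 1 and 1, the largest difference on this side (-6.00 ± 0.62, limma, adjusted p = 3.35e-09).

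LINC01266 and LINC00605 became genes of late CD43- cells. LINC01266 was at 8, 4 and 12 in day 6 CD43- cells, at 13, 56 and 8 on day 9, 30, 110 and 32 on day 12 and 136, 169 and 128 on day 16, when the CD43+ values were 4, 14 and 4 (-4.32 ± 0.63, limma, adjusted p = 9.33e-07). LINC00605 was at 127, 140 and 120 in day 16 CD43- cells and at 18, 14 and 12 in CD43+ cells. LINC00472 was at 230, 386 and 99 against 22, 10 and 6 on day 9, and at 64, 262 and 62 against 3, 4 and 1 on day 12. LINC00551 was at 44, 44 and 53 in day 16 CD43- cells and at 2 or less in all day 12 samples of both fractions.

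LINC00950 and LINC01057 also belonged to the CD43- side from day 9 or day 12 on. LINC00950 was at 190, 154 and 136 on day 0, fell to 28, 28 and 16 on day 2, and was at 188, 148 and 144 in day 16 CD43- cells against 24, 10 and 15 in CD43+ cells (-3.29 ± 0.41, limma, adjusted p = 6.63e-08). LINC01057, which overlaps SLC44A3 on the other strand and is uncertain, was at 32, 36 and 40 against 4, 0 and 3 on day 16 (-3.76 ± 0.53, adjusted p = 5.41e-07). LINC01198 was at 30, 16 and 2 against 0, 1 and 0 on day 12, with a CD43- sample close to the CD43+ values.

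Some genes were called lower in CD43+ cells on a single day only, which does not show that the other days differed. LINC00461, the host gene of miR-9-2, was at 10, 13 and 12 in day 6 CD43- cells and at 2, 1 and 0 in CD43+ cells (-2.79 ± 0.65, limma, adjusted p = 0.00085), and was at 6 or less in every later sample. LINC00857 was at 6, 10 and 17 against 0, 3 and 4 on day 6 (-2.04 ± 0.65, adjusted p = 0.0104), a call that was lost without the third CD43- sample (adjusted p = 0.0558) or without the first CD43+ sample (adjusted p = 0.111). Its differences on days 9, 12 and 16 were of about the same size, -1.71, -1.54 and -1.88, and under the 4-fold limit. LINC00900 was at 20, 40 and 30 against 2, 0 and 2 on day 9 and at 56, 48 and 26 against 40, 12 and 14 on day 12, when the fractions overlapped. LINC01105 was at 16, 8 and 12 against 0, 1 and 0 on day 9 and at 22, 32 and 4 against 14, 9 and 10 on day 12, with overlap again.

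LINC00479 changed sides. On day 6 it was at 50, 96 and 49 in CD43+ and 16, 12 and 30 in CD43- cells, with all CD43+ values higher, though under the 4-fold limit. From day 9 on no CD43+ sample was above 1, and the CD43- samples were at 10, 48 and 12 on day 9, 3, 38 and 8 on day 12 and 20, 16 and 14 on day 16. It was called lower in CD43+ cells on these 3 days, with limma adjusted p-values of 2.58e-07, 1.93e-05 and 3.48e-07, and no fold is given because it was listed at 0 in all CD43+ samples of days 9 and 16. LINC01315 was called higher in CD43+ cells on day 6 (8, 10 and 16 against 1, 2 and 1) and lower on day 16, where the fractions overlapped (0, 0 and 5 against 12, 10 and 4). LINC00678 and LINC01271, the other genes called in both directions over the days, were at 36 or less in every sorted sample.

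Several of these genes lie beside a protein-coding gene with a like pattern. The Pearson correlation of the log2 population means over the 12 populations was 0.94 for LINC01127 and IL1R2 (a decoy receptor of interleukin-1), 0.896 for LINC00261 and FOXA2 (an endoderm transcription factor), 0.893 for LINC01133 and SLAMF9, 0.845 for LINC00528 and BID and 0.824 for LINC00982 and PRDM16. IL1R2 was called higher in CD43+ cells on the same days as LINC01127, by 3.75 ± 0.58 on day 12 and 3.49 ± 0.58 on day 16 (limma, adjusted p = 2.31e-06 and 7.02e-06). FOXA2 was called lower on all 4 days. Other neighbours differed: LINC01366 and KCNIP1 had a correlation of -0.601, with KCNIP1 called lower in CD43+ cells on all 4 days, and LINC00861 and TRIB1, 484 kb apart, of -0.297.

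Over the set, the median correlation with the nearest protein-coding gene was 0.37 for the 34 tested genes that overlapped it, 0.318 for 48 genes within 5 kb, 0.20 for 87 genes at 5 to 50 kb and -0.005 for 90 genes farther away. Pairs of neighbouring protein-coding genes gave 0.239, 0.201, 0.172 and 0.096 in the same classes. Both genes of a pair are measured in the same libraries, so these are descriptions over 12 points. For the overlapping pairs reads of the 2 genes cannot be told apart.

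From day 6 to day 9 fewer genes were called than from day 4 to day 6. In CD43- cells 2 genes were called higher and 4 lower, against 1.1% and 0.657% of all genes, and in CD43+ cells 10 and 8 (3.86% and 3.09% of the set), against 3.56% and 3.97%. LINC01594 was at 16, 13 and 6 in CD43- and at 14, 17 and 16 in CD43+ cells on day 6 and was listed at 0 in all 6 day 9 samples. LINC01415 was at 26, 22 and 28 in day 6 CD43+ cells and at 6, 0 and 4 on day 9 (limma, adjusted p = 0.00171).

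Day 12 stood out for a rise that many of these genes shared in both fractions. In CD43+ cells 48 genes were called higher and 12 lower than on day 9, against 8.45% and 6.54% of all genes, and the share higher was 18.5% of the set. In CD43- cells 33 were called higher and 10 lower, against 4.52% and 2.8%, a share of 12.7%. By day 16 more genes were lower than higher. In CD43+ cells 16 were called higher and 32 lower than on day 12, against 3.79% and 5.26%, and in CD43- cells 15 and 41, against 4.46% and 5.97%. Without the second day 12 CD43+ sample the CD43+ counts were 25 and 31, and among genes at 100 or more in at least 3 samples they were 6 and 6. The comparisons of day 12 with day 9 and of day 16 with day 12 share the day 12 samples, so a gene that was high on day 12 counts in both.

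The number of genes at a value of 10 or more shows the same course. It was 175 to 191 of the 283 in the 3 day 12 CD43+ samples, above the range of every other population, of which day 16 CD43+ cells had the highest, 162 to 167. In CD43- cells it was 132 to 137 on day 9, 144 to 149 on day 12 and 137 to 139 on day 16. Noncoding genes named after clones moved the same way in CD43+ cells, from a mean of 1417 on day 9 to 1642 on day 12 and 1335 on day 16, while protein-coding genes went from 13972 to 13700 and 14051. The equal sorted values of all samples tie these opposite movements together.

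**Figure D4:**
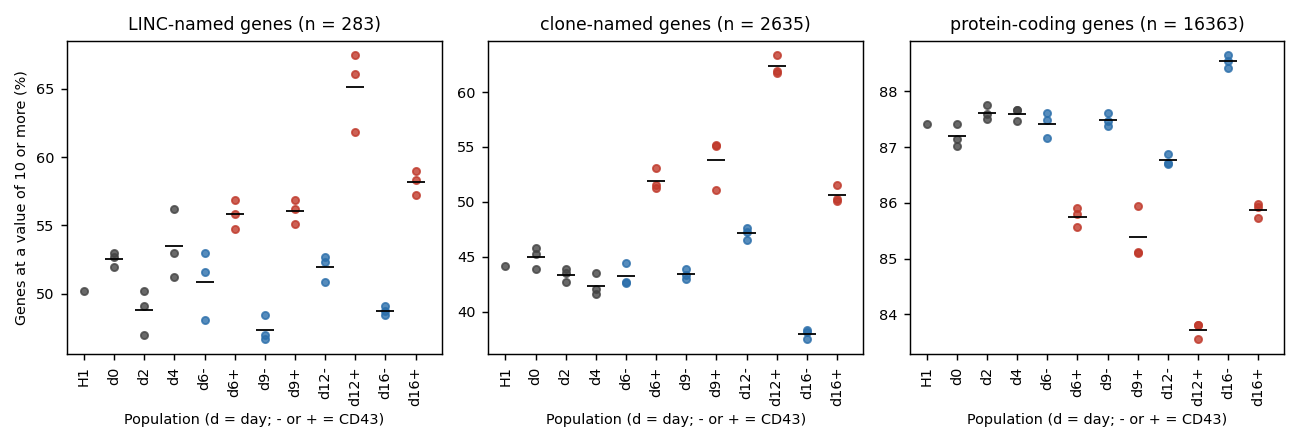
Share of genes at a value of 10 or more (%, vertical axis) in every sample, by population on the horizontal axis (grey, unsorted; blue, CD43-; red, CD43+; points, samples; bars, means), for LINC-named, clone-named and protein-coding genes, with a separate vertical range in each panel. The day 12 CD43+ samples are the highest for the 2 noncoding classes and the lowest for protein-coding genes.

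Taken per gene, all 3 day 12 values lay above all 6 values of days 9 and 16 for 56 genes of the set in CD43+ cells (21.6%, against 9.84% of all genes tested) and for 48 in CD43- cells (18.5%, against 7.59%). For 38 genes this held in both fractions (14.7%, against 4.19% of all genes, 2.26% of protein-coding and 14.2% of clone-named genes). The opposite pattern had shares nearer the background. Day 12 lay below both days for 20 genes in CD43+ cells (7.72%, against 9.71%), for 13 in CD43- cells (5.02%, against 7.37%) and for 7 in both (2.7%, against 2.19%). The 38 genes were 27 lincRNA, 4 protein-coding, 4 antisense and 2 processed transcript genes and 1 without an entry. Some low genes passed the filter only through their day 12 samples, which favoured this pattern in advance. LINC00276, for example, was at 12, 6 and 11 in day 12 CD43- cells and 11, 18 and 32 in day 12 CD43+ cells. It was at 1 or less in all other samples. Such genes were not counted.

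The level of a gene bore on this count. Among genes with a mean value under 10, the pattern in both fractions was found for 18 of 80 genes of the set (22.5%), 5.61% of protein-coding and 16.1% of clone-named genes. With a mean of 10 to under 100 it was found for 15 of 135 (11.1%), 2.69% and 12.6%, and with a mean of 100 or more for 5 of 44 (11.4%), 1.9% and 15.1%. At each level the noncoding classes had the higher share.

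LINC00670, which lies 23.0 kb from MYOCD, had the largest day 12 rise when genes were ranked by the smaller of the changes in the 2 fractions. It was listed at 0 in all samples up to day 4 and at no more than 3 on days 6 and 9. On day 12 it was at 86, 54 and 52 in CD43+ and at 42, 24 and 32 in CD43- cells, and on day 16 it was listed at 0 in all 6 samples. Its day 12 rise was called in both fractions (limma, adjusted p = 1.36e-11 in CD43+ and 5.88e-10 in CD43- cells).

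LINC00608, LINC00547, LINC01562 and LINC01531 followed it. LINC00608, which overlaps the transcription factor gene FEV and is therefore uncertain, was at 166, 60 and 58 in CD43+ and 75, 46 and 18 in CD43- cells on day 12 and at 4 or less in every sample of another day. LINC00547 was at 50, 40 and 50 and at 24, 34 and 30 on day 12, and at 6 or less elsewhere. LINC01562, which lies 1.175 kb from RNF11, was at 102, 62 and 51 and at 56, 38 and 40.

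LINC01531 was at 24, 41 and 32 in CD43+ and 16, 25 and 14 in CD43- cells on day 12 and at 5 or less in all other samples. LINC00608, LINC00547, LINC01562 and LINC01531 were all called higher on day 12 than on day 9 and lower on day 16 than on day 12 in both fractions, with limma adjusted p-values between 9.15e-10 and 1.23e-05. With a pseudocount of 10, LINC00547 was under the 4-fold limit in CD43- cells (1.92 and -1.92), as was the day 12 rise of LINC01531 in both fractions (1.48 in CD43- and 1.97 in CD43+ cells). LINC00652 had been present before, at 10, 19 and 12 on day 0, and reached 66, 54 and 70 in CD43+ and 54, 73 and 46 in CD43- cells on day 12 before it was at 6 or less in all day 16 samples.

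**Figure D5:**
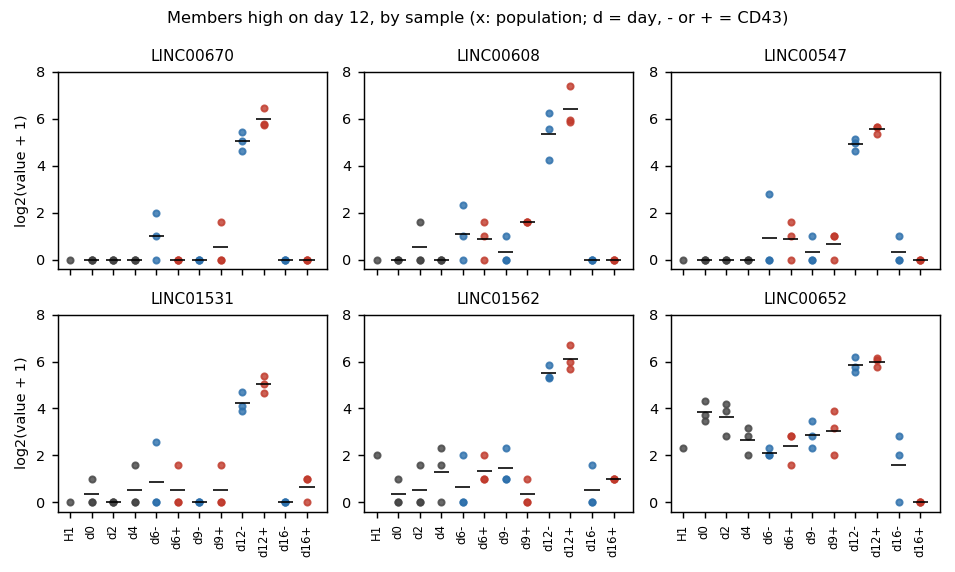
Values of 6 genes in every sample as log2(value + 1) on the vertical axis, by population on the horizontal axis (grey, unsorted; blue, CD43-; red, CD43+; points, samples; bars, means of the log2 values). All 6 day 12 samples lie above all day 9 and day 16 samples in each panel, and LINC00652 alone exceeds a value of 6 on other days.

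The samples were sequenced at 2 companies, and the labels do not say which samples went to which, so no values within a company could be given. The CD43- samples of day 12 also held the summed myeloid markers of 91, 1767 and 8011 given above. In the same order of samples LINC00547 was at 24, 34 and 30, LINC01531 at 16, 25 and 14 and LINC00652 at 54, 73 and 46. LINC00670 was at 42, 24 and 32, LINC00608 at 75, 46 and 18 and LINC01562 at 56, 38 and 40. The part of myeloid transcripts in these values was not tested. In CD43+ cells the blood markers changed between days 9 and 12. The erythroid markers HBE1, HBZ, HBG1 and ALAS2 summed to 112540 to 190385 on day 9 and to 5141 to 13419 on day 12, and the myeloid markers to 24882 to 33731 and then 191482 to 210420. HBE1 was at the highest value in the data, 90700, in all day 9 CD43+ samples, as were MPO and LYZ in those of day 12. The part of these changes in the day 12 values was not tested.

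Genes that fell on day 12 were fewer and included LINC00887 and LINC01441. LINC00887 went from 188, 220 and 213 on day 9 to 0, 10 and 0 on day 12 in CD43+ cells (-6.54 ± 0.69, limma, adjusted p = 1.08e-08) and from 120, 130 and 154 to 3, 25 and 2 in CD43- cells (-4.31 ± 0.69, adjusted p = 2.77e-05). LINC01441 went from 16, 24 and 13 to 0, 0 and 1 and from 12, 4 and 8 to 0, 0 and 0.

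Some genes were higher on day 16 than on day 12. LINC00694, which overlaps ZNF445 and is uncertain, was at 48, 22 and 79 in CD43+ and at 9, 22 and 13 in CD43- cells, after 3, 16 and 8 and then 0 in all 3 CD43- samples on day 12. LINC00987 was at 12, 10 and 12 and at 11, 8 and 4, after 1, 2 and 1 and then 0 in all 3 CD43- samples on day 12, and had been at 17, 22 and 24 on day 0. LINC01119 was at 24, 30 and 22 and at 13, 10 and 18, above the day 12 values of both fractions, which were at 4 or less, and near the 10, 6 and 12 of day 4. LINC00642 was at 38, 28 and 24 in day 16 CD43+ cells and at 0, 0 and 6 in CD43- cells, after 10, 8 and 18 in day 9 and 2, 0 and 3 in day 12 CD43+ cells.

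Of the 5 genes known to encode small proteins that were in the table, LINC00116 and LINC00961 were called between the fractions. LINC00116 was called higher in CD43+ cells on all 4 days (101, 135 and 144 against 28, 41 and 24 on day 6, 2.02 ± 0.29, limma, adjusted p = 1.84e-06). LINC00961 (SPAAR, which encodes a lysosomal polypeptide) was called lower in CD43+ cells on days 9 and 16, with 3, 1 and 0 against 34, 18 and 28 on day 9 (-3.75 ± 0.50, adjusted p = 2.84e-07). LINC00493 (which overlaps DTD1), LINC01420 and LINC00998 (SMIM30) were called in none of the 4 fraction comparisons. LINC00493 ranged from 188 to 522, LINC01420 from 296 to 868 and LINC00998 from 239 to 1082 over all samples.

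The genes with the highest mean values were LINC01001, LINC01002, LINC00506, LINC00969 and LINC01578, of which LINC00969 overlaps MUC20. LINC01001 ranged from 996 to 2963 and LINC01002 from 858 to 3062, and LINC01578, which lies 0.488 kb from CHD2, ranged from 408 to 2230. LINC00174, LINC00294 and LINC01128 had the smallest range of population means among genes at 100 or more in every sample. LINC00174 ranged from 120 to 314, LINC00294 from 155 to 372 and LINC01128 from 210 to 490. LINC01021 (PURPL, a p53 target) was at 185, 266 and 113 on day 0 and was called higher in CD43+ cells on day 6 (128, 99 and 151 against 40, 26 and 25, 2.03 ± 0.31, limma, adjusted p = 4.89e-06).

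Of the 259 genes, 189 were called in at least 1 of the 14 comparisons (73%, against 50.4% of all genes) and 70 in none. Among the 11 replicated populations the one with the highest mean was day 12 CD43+ for 60 genes (23.2%, against 12% of all genes), day 16 CD43+ for 48 (18.5%, against 14.3%) and day 0 for 34 (13.1%, against 15.2%). It was day 9 CD43+ for 24 (9.27%, against 10.4%) and day 6 CD43+ for 23 (8.88%, against 6.82%). A further 20 genes were highest in day 16 CD43- cells (7.72%, against 10.9%), 18 in day 12 CD43- (6.95%, against 6.64%) and 12 on day 2 (4.63%, against 10.8%). The last were 9 on day 4 (3.47%, against 5.36%), 7 in day 6 CD43- (2.7%, against 3.8%) and 4 in day 9 CD43- cells (1.54%, against 3.62%).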

How the data were processed

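H1 cells of the described stages were profiled by RNA sequencing. For the deposited table the authors used bowtie2, RSEM, an Ensembl annotation and EDASeq (the submitters' processing notes also name bcl2fastq and STAR 2.7). Its unit is GC-normalised tag counts rounded by the authors to whole numbers, treated here as a score and not as raw counts. The deposited GC content of each gene, in percent, has no stated source. Depth is unknown, so errors are the spread between replicates, which the study describes as biological.

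Groups came from the labels. A single limma model (version 3.58.1, R 4.3.3, trended eBayes) was fitted to log2(value + 1) of the 33 replicated samples, with no block. It covered 19788 genes that reached 10 in at least 3 of them. A gene was called when its p-value, adjusted by Benjamini and Hochberg's method over all of these genes, was under 0.05 and its fold change over 4. The fit was tested on simulated data first. Alternatives were other pseudocounts, filters and scaling, a replicate block, fits of 2 populations and leaving out each sample.

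Same-numbered samples of the fractions deviated together on day 6 (correlations of 0.198, 0.109 and 0.199) and less on days 9, 12 and 16 (-0.015 to 0.108).

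Genes named were, among called genes whose groups did not overlap, the 5 largest rises and falls in each CD43 comparison and the 3 largest in each other comparison. To these came the 5 largest day 12 rises and the 5 largest falls to day 16 by the smaller change of both fractions, the 5 highest means, the 3 smallest ranges of population means among genes at 100 or more in every sample, short lists (genes known from pluripotent cells, from myeloid cells, as small protein genes or as well studied) and nearest protein-coding genes. LINC00211, LINC00276, LINC00299, LINC00520, LINC01271 and genes named only among the flagged results were named after their values were seen. LINC00086, LINC00087 and LINC00657 are not analysed here. The members, lists and comparisons were chosen with earlier results of these data known. Promoters came from RefSeq (GRCh38.p14), gene types from GENCODE v29. Python 3.11.15, numpy 2.4.6, pandas 2.3.3 and matplotlib 3.10.9 were used.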

Additional observations from a re-analysis of the deposited data

Results flagged for a closer look

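The difference between the CD43 fractions was itself compared between successive sort days by an interaction term in the limma fit, and for the genes named it differed in 29 instances in 22 genes (adjusted p below 0.05 and a change above 4-fold on the log2(value + 1) scale). Most of these genes were named for large changes in these same data, which favoured such results. No share over all genes tested was computed, and genes of the set that were not named, such as LINC00092, changed as well. Successive changes share the samples of the day between them. Where a fraction was listed at 0 in all samples the size depends on the added 1 and is no fold. Groups of 3 samples were not tested for single outlying samples.

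From day 6 to day 9 the difference (CD43+ minus CD43-) moved towards CD43+ for 9 genes. The change was 4.87 for LINC00599, 4.42 for LINC00989, 4.25 for LINC00528, 4.04 for LINC01094, 3.33 for LINC01215, 3.29 for LINC00642, 3.28 for LINC00678, 2.78 for LINC01272 and 2.41 for LINC00877. It moved towards CD43- for 7 genes, by -5.98 for LINC00479, -3.58 for LINC00961, -3.41 for LINC01315, -2.95 for LINC00900, -2.76 for LINC00982, -2.61 for LINC00472 and -2.32 for LINC01105. LINC00479 was the gene whose CD43+ values went from 50, 96 and 49 to 0 in all 3 samples.

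From day 9 to day 12 it moved towards CD43+ for 8 genes, by 5.78 for LINC00482, 4.41 for LINC01127, 3.69 for LINC00599, 3.55 for LINC00551, 2.92 for LINC01105, 2.77 for LINC00900, 2.68 for LINC01272 and 2.28 for LINC00961. For LINC00551 and LINC00961 it was the CD43- values that fell, to 2 or less and to 6 or less. The change was -2.8 for LINC01198 and -2.03 for LINC01133. From day 12 to day 16 the change was 2.8 for LINC00642, 2.63 for LINC01619 and -3.98 for LINC00551.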

How the results depend on the processing

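The counts of LINC-named genes called depended on the pseudocount and the filter, because many of these genes have low values. With a pseudocount of 10 the counts were 10 (day 2 against 0), 10 (day 4 against 2), 7 and 14 (day 6 CD43- and CD43+ against day 4), 7, 15, 21 and 28 (CD43+ against CD43- on days 6, 9, 12 and 16), 1, 8 and 13 (CD43- cells, day 9 against 6, 12 against 9 and 16 against 12) and 3, 22 and 11 (CD43+ cells, same order). With a filter of 100 in at least 3 samples they were, in this order, 14, 17, 17, 21, 9, 22, 24, 30, 3, 11, 14, 7, 15 and 12, with fewer genes tested. With a pseudocount of 0.1 the count for CD43+ cells on day 9 against day 6 was 29 instead of 18. A fit of only these populations called 0 genes for CD43- cells on day 9 against day 6 (limma; 31 at an unadjusted p below 0.05), against 6 in the fit of all samples. On each sort day more genes were higher than lower in CD43+ cells under each of these settings. The shares of all genes tested were not computed under them, so the contrast with that background is known for the main fit only. Leaving out each sample in turn gave 19 to 27 genes on day 6, 51 to 58 on day 9, 56 to 66 on day 12 and 72 to 83 on day 16 for the fractions, 5 to 7 for CD43- cells on day 9 against day 6, and 37 to 56 for CD43+ cells on day 16 against day 12 (56 without the second day 12 sample). The replicate block gave the same counts as without it (24, 54, 60 and 81 for the fractions) and changed no named call. It fits an effect of each replicate number that all populations share, so it does not pair the fractions within a day. A block within day 6, which does so for that day, also gave 24 genes and changed no named call. Alternatives chosen after seeing the data were a block on day 6 alone, and the day 12 pattern in both fractions, found for 38 to 42 genes without 1 sample and 41 after scaling by medians of ratios. That scaling moved the median of all genes by -0.139 and -0.206 in the day 6 and day 9 fraction comparisons and by 0.149 in CD43+ cells on day 12 against day 9. Of 108 calls named, 40 were lost with a pseudocount of 10, 6 in fits of 2 populations and 2 with a pseudocount of 0.1, and none changed sign. Among the 40 were the fraction calls of LINC01133 on day 6 and of LINC00479 on days 9 and 16. Those of LINC00261 and LINC00982 on day 12 and of LINC01057 on day 16 were lost as well. Leaving out 1 sample at a time lost a named call in 11 instances. With the filter of 100 only 47 of the calls could be tested, and these were kept.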

Other observations

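The single undifferentiated H1 sample entered no test. In it 142 of the 283 LINC-named genes were at 10 or more, against 147 to 150 in the day 0 EBs. LINC01315 was at 276 there and at 112, 160 and 134 on day 0, LINC00116 at 232 and at 62, 77 and 76, and LINC00599 at 558 and at 1307, 918 and 818.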
